A study of Rattus norvegicus with 8 samples.

Results

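The microRNAs (miRNAs) encoded inside the Hox clusters, the miR-10 and miR-196 families, were followed in C6 cells, a rat glioma line. Members were taken by name from the array: every arm of rno-miR-10a, rno-miR-10b, rno-miR-196a, rno-miR-196b and rno-miR-196c. That gave 10 of the 719 miRNAs on the array, 5 of them 5p arms and 5 of them 3p arms. Of the 243 miRNAs that passed the detection filter and were tested, 5 were members, all of them 5p arms. The filter kept a miRNA detected on both arrays of at least 1 of the 4 groups.

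The study compared C6 cells given 1 of 3 antipsychotics, at 2 µg/ml for haloperidol, 4 µg/ml for risperidone and 25 µg/ml for clozapine, with untreated control C6 cells. Haloperidol is a typical antipsychotic, and risperidone and clozapine are atypical ones. Each drug was added to the medium every day for 5 days, and the control cells are labelled untreated. All 4 groups grew in the same medium with horse serum and FBS, and all came from 1 cell line, so other glia or other tumours were not sampled. Each group had 2 arrays, called biological repeats in the design text, on 1 slide of 8 Agilent single-colour arrays with 100 ng of total RNA each. Replicate number was also the slide row, and treatment was also the slide column, so column and treatment cannot be told apart.

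Hox genes encode transcription factors that set position along the head-to-tail axis of the embryo, and they stand in clusters on separate chromosomes. The miR-10 and miR-196 genes lie between these Hox genes and are transcribed from the same loci; in mouse, miR-196 directs cleavage of the Hoxb8 messenger RNA. In human glioblastoma, miR-10b is known for being higher than in normal brain. A miRNA selects its targets mainly through its seed, the bases near its 5′ end.

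The 5p sequences are shown because the members differ from each other by single bases, which bears on what the array can tell apart. They are the RefSeq mature sequences on the rat build GRCr8, written 5′ to 3′, and the capitals mark the seed (bases 2 to 8).
rno-miR-10a-5p: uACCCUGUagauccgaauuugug
rno-miR-10b-5p: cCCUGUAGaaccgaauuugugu
rno-miR-196a-5p: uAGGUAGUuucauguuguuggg
rno-miR-196b-5p: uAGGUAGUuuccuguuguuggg
rno-miR-196c-5p: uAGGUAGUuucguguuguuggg

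The 3 miR-196 sequences share the seed AGGUAGU, and no other of the 641 array miRNAs with a RefSeq sequence carried it. Counted from 1 at the 5′ end of miR-196a-5p, miR-196b-5p differed from it by A12C and miR-196c-5p by A12G. The RefSeq entry for miR-10b-5p starts 2 bases further into its hairpin than that of miR-10a-5p, where the hairpin reads UA, so the printed seeds ACCCUGU and CCUGUAG differ. Aligned with that offset, the miR-10 pair differed by 1 substitution over 21 bases, U12A counted along miR-10a-5p. Probe sequences were not used here. Whether a probe for one miR-196 also bound another, or a probe for one miR-10 the other, was not tested.

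The 5 genes fall in all 4 Hox clusters. Mir10a (mature 5p arm at chr10:81779730-81779752, plus strand) lies between Hoxb5 and Hoxb4. Mir196c (chr10:81727561-81727582, plus strand) lies between Hoxb13 and Hoxb9, so it shares the HoxB cluster with Mir10a. Mir196b (chr4:82661149-82661170, minus strand) stands between Hoxa9 and Hoxa10 in HoxA. Mir196a (chr7:135988900-135988921, plus strand) stands between Hoxc10 and Hoxc9 in HoxC, and Mir10b (chr3:80035886-80035907, plus strand) lies inside the annotated span of Hoxd4 in HoxD. These neighbours are the names in the RefSeq annotation of GRCr8. A gene order is a description and carries no statement about which transcript gave the signal.

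C6 cells gave signal for the 5p arm of every member, above the detection call on all 8 arrays for miR-10a-5p, miR-196b-5p and miR-196c-5p and on 6 arrays for miR-10b-5p and miR-196a-5p. The authors' deposited summed signal, a linear brightness not scaled between arrays, was 132 to 376 for miR-10a-5p. It was 33.7 to 172 for miR-196b-5p and 6.76 to 41.3 for miR-196c-5p. The deposited signal of miR-10b-5p was at most 17.5 and that of miR-196a-5p at most 20.9. Probes differ in brightness, so these ranges set no order of abundance between members. Undetected entries are all deposited as 0.1, and these fell on risperidone replicate 2 for both faint members, with clozapine replicate 1 for miR-10b-5p and clozapine replicate 2 for miR-196a-5p.

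None of the 5 3p arms was detected on any array. Their 15 probes had 776 usable spots in all, and 0 of these spots were well above background. The mean background-subtracted signals of these probes ran from -8.83 to 6.85, with a median of -4.31, so no level or fold is given for the 3p arms. Across the array, 262 hairpin names had a probe set for each arm. Both arms were detected for 21.4% of those names, the 5p arm alone for 18.3%, the 3p arm alone for 17.6% and neither for 42.7%. The members thus all sat in the class where only the 5p arm was detected. RefSeq mature sequences matched 9 of the 10 members, all but rno-miR-196a-3p. The remaining Hox-cluster miRNA on the array, miR-615, whose gene lies inside Hoxc6 and Hoxc5, was detected on 0 arrays.

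The separate probes of a member were compared within each array. The brighter of the miR-10a-5p probes gave 1.75 to 1.88 times the signal of the other across the 8 arrays, and for miR-196b-5p this ratio was 1.72 to 1.92. For these members both probes moved together. The 2 probes of miR-10b-5p disagreed: most of the spots were well above background on 0 arrays for one probe and on 5 arrays for the other. Those of miR-196a-5p had 0 and 3 such arrays. The 4 probes of miR-196c-5p had 3, 6, 6 and 7.

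Levels below are log2 values relative to each array's 75th percentile over the 292 probes detected on all arrays, with a floor of -6.21, and each pair of values is replicate 2 and then replicate 1. For miR-10a-5p the levels were -0.97 and -1.97 in haloperidol cells, -0.99 and -1.81 in risperidone cells, -1.26 and -1.97 in clozapine cells, and -0.79 and -1.42 in control cells. In every group replicate 2 was the higher array, and each drug group overlapped the control group. The distance between the 2 arrays of one group, 0.63 to 0.999, exceeded every difference between group means, the widest of which was -0.51 (clozapine minus control).

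miR-196b-5p had levels of -2.86 and -2.55 in haloperidol cells, -2.97 and -2.59 in risperidone cells, -2.82 and -2.60 in clozapine cells, and -2.53 and -2.21 in control cells. All 6 drug arrays lay below both control arrays, by a margin as narrow as that between haloperidol replicate 1 and control replicate 2. Taken drug by drug, 32.9% (haloperidol), 32.9% (risperidone) and 34.2% (clozapine) of the 243 tested miRNAs were likewise lower without overlap. The same 2 control arrays serve each comparison, and the share lower without overlap for all 3 drugs at once was not computed. miR-196c-5p had levels of -4.20 and -3.65 in haloperidol cells, -3.73 and -3.65 in risperidone cells, -3.87 and -3.29 in clozapine cells, and -3.60 and -3.12 in control cells. Haloperidol and risperidone arrays lay below both control arrays for miR-196c-5p, while clozapine overlapped the control group.

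The faint members sat near the floor. miR-196a-5p was at the floor and at -5.68 with haloperidol, at the floor and at -5.85 with risperidone, at -6.20 and -5.65 with clozapine, and at -5.50 and -5.10 in control cells. miR-10b-5p was at -5.50 and at the floor with haloperidol, at the floor on both risperidone arrays and both clozapine arrays, and at -5.07 and -5.72 in control cells. Control cells were the group with both arrays of both faint members above the floor, and values at the floor have no order among themselves.

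**Figure D1:**
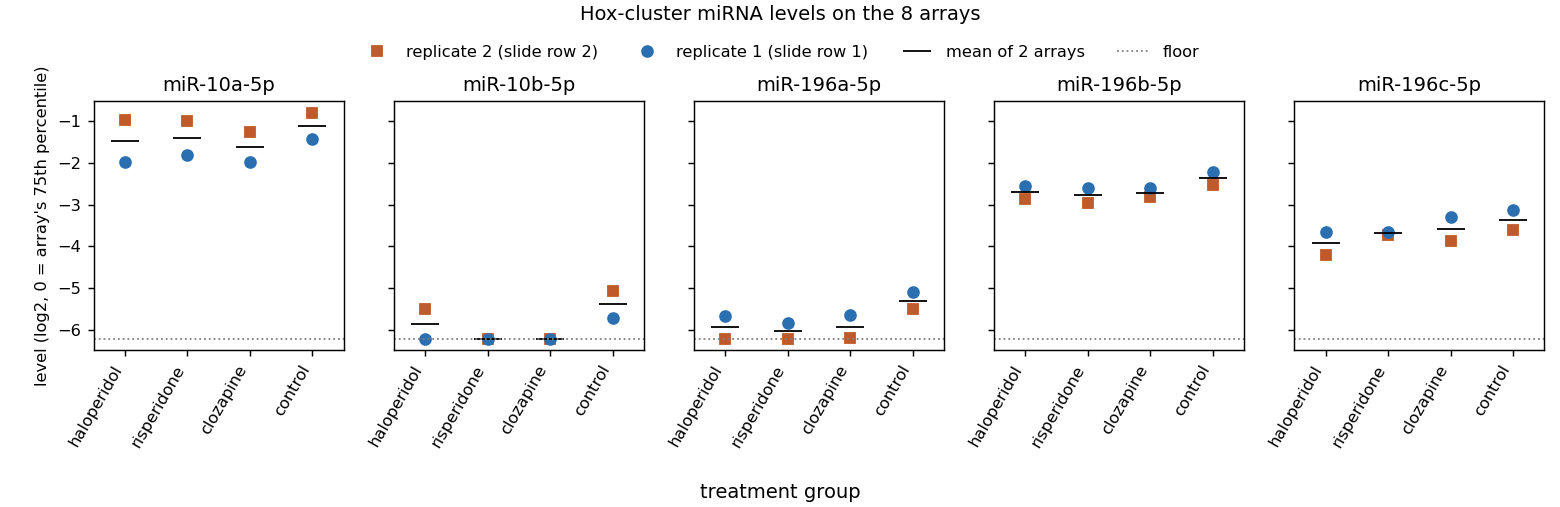
Log2 level of each 5p member on each of the 8 arrays, by treatment group, relative to the array's 75th percentile (0 on the y axis); squares are replicate 2, circles replicate 1, bars the mean of 2 arrays and the dotted line the floor at -6.21. miR-10a-5p has its replicate 2 arrays on top in all 4 groups, and miR-196b-5p has its replicate 1 arrays on top.

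Each drug was then set against untreated cells, the comparison the design text names. The 5 members had negative log2 fold changes with every drug, but none passed the test, nor did any of the other miRNAs: limma called 0 of 243 miRNAs at an adjusted p under 0.05 for each drug, which is 0% called. At an unadjusted p under 0.05 limma had 17 miRNAs for haloperidol (7%), 22 for risperidone (9.05%) and 36 for clozapine (14.8%). The 3 comparisons share the same 2 control arrays, so a low or high control array moves all of them. An exact permutation test of 2 arrays against 2 cannot give a p below 0.333.

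With haloperidol, the members' log2 fold changes ran from -0.65 to -0.33 with a median of -0.46, beside a median of -0.15 over all 243 tested miRNAs. All 5 were below 0, as were 62.1% of all tested. miR-196a-5p was at -0.65 (SE 0.30; adjusted p 0.576, limma), with 1 of the 2 haloperidol arrays at the floor, so the value depends on the floor and no fold is given. miR-196c-5p was at -0.56 (SE 0.30), miR-10b-5p at -0.46 (SE 0.31), miR-10a-5p at -0.37 (SE 0.50) and miR-196b-5p at -0.33 (SE 0.22), with limma adjusted p of 0.576 to 0.720. The haloperidol arrays lay below both control arrays for the 3 miR-196 members, and 32.9% of all tested miRNAs did the same.

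With risperidone, the members ran from -0.82 to -0.30 with a median of -0.41, beside -0.15 for all tested. All 5 were below 0, against 60.5% of all tested. miR-10b-5p, at the floor on both risperidone arrays, was at least 1.76-fold lower than in control cells, counted from the floor (limma adjusted p 0.453, unadjusted 0.0436). miR-196a-5p had a log2 fold change of -0.73 (SE 0.30; limma adjusted p 0.453), with 1 of the 2 risperidone arrays at the floor. miR-196b-5p stood at -0.41 (SE 0.22), miR-196c-5p at -0.33 (SE 0.30) and miR-10a-5p at -0.30 (SE 0.50), with limma adjusted p of 0.508 to 0.739. Without overlap and lower were miR-10b-5p and the 3 miR-196 members, beside 32.9% of all tested. Risperidone replicate 2 was the dimmest array. Without it the risperidone log2 fold change of miR-10a-5p was -0.71, and without risperidone replicate 1 it was 0.11.

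With clozapine, the members ran from -0.82 to -0.22 with a median of -0.51, beside -0.17 for all tested, and all 5 were below 0, against 66.3% of all tested. miR-10b-5p was again 1.76-fold lower, counted from the floor (limma adjusted p 0.326, unadjusted 0.0436). Its log2 fold change ran from -1.19 (lower floor) to 1.05 (normexp background correction) across the same settings. miR-196a-5p was at -0.62 (SE 0.30), miR-10a-5p at -0.51 (SE 0.50), miR-196b-5p at -0.34 (SE 0.22) and miR-196c-5p at -0.22 (SE 0.30), with limma adjusted p of 0.455 to 0.758. The clozapine arrays of miR-10b-5p, miR-196a-5p and miR-196b-5p lay below both control arrays, as did 34.2% of all tested. The direction of these changes depended on the scaling. With the percentile taken over all probes, or with normexp background correction, most members were above 0 with risperidone and clozapine.

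Within a slide row, all 5 members were lower with each drug than in the control array of the same row, for both rows. That held for 50.2% of all tested miRNAs for haloperidol, 43.6% for risperidone, and 52.7% for clozapine. The 2 within-row differences of miR-196b-5p were close to each other: -0.33 and -0.34 for haloperidol, -0.44 and -0.38 for risperidone, and -0.29 and -0.40 for clozapine, in rows 2 and 1. Those of miR-10a-5p were -0.18 and -0.55 for haloperidol, -0.20 and -0.40 for risperidone, and -0.47 and -0.55 for clozapine. miR-196a-5p ranged over the 3 drugs and both rows from -0.74 to -0.55, partly set by the floor.

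In the limma fit with the replicate number as a block, the standard error of miR-10a-5p was 0.13 in place of 0.50, and that of miR-196a-5p was 0.10 in place of 0.30. No member passed with the replicate block either. The lowest blocked adjusted p values were those of miR-196a-5p, 0.191 for haloperidol, 0.0719 for risperidone, and 0.0679 for clozapine. These depend on the floor. miR-196a-5p was at the floor on replicate 2 of haloperidol and risperidone, and undetected at -6.20 on clozapine replicate 2. For miR-196b-5p the blocked adjusted p values were 0.222, 0.114 and 0.138, and for miR-10a-5p 0.250, 0.217 and 0.132. The blocked fit called 0, 1 and 2 of 243 miRNAs for haloperidol, risperidone and clozapine (0%, 0.412% and 0.823%), none of them a member.

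**Figure D2:**
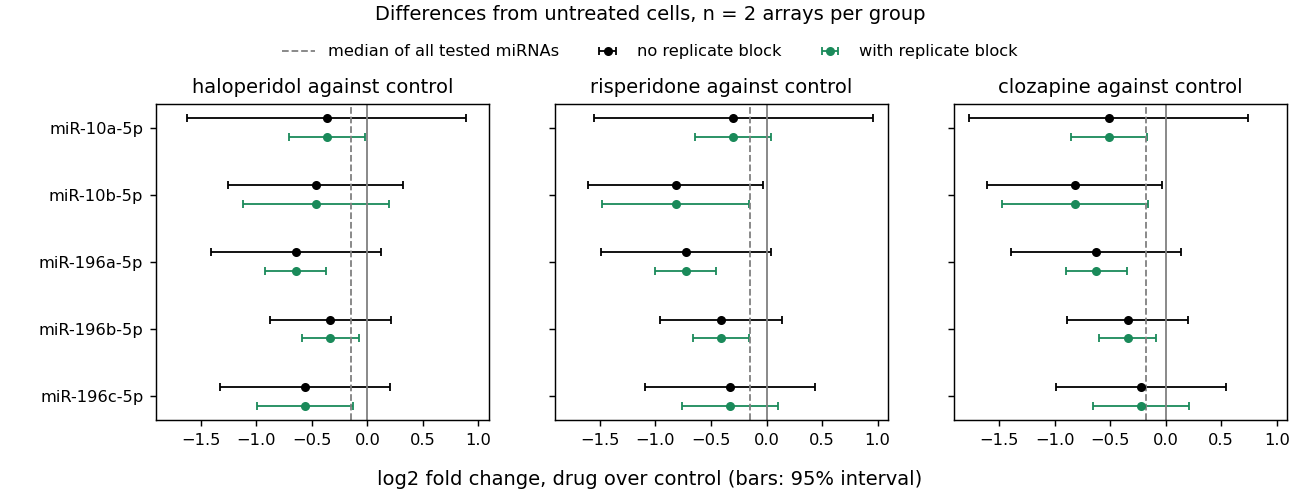
Log2 fold change of each 5p member, drug over control, n = 2 arrays per group, with 95% intervals from limma; black without and green with the replicate block, and the dashed line is the median of all 243 tested miRNAs. Every point lies left of 0, and the black intervals of miR-10a-5p are the widest.

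The scaling and background settings moved the members and the median of all tested miRNAs, not always by the same amount. With the percentile over all probes the median of all tested miRNAs was 0.35 for risperidone and 0.42 for clozapine, and with normexp it was 0.38 and 0.76. Under the percentile over all probes, miR-196b-5p stood at 0.18 with risperidone and 0.31 with clozapine, below the median of all tested in both cases. Under normexp, miR-10b-5p was at 0.43 and 1.05 and miR-196a-5p at 0.44 and 1.05, above that median. miR-196c-5p was close to these, at 0.42 and 0.95. Normexp added an offset of 50 to each spot. The highest mean background-subtracted probe signal was 25.4 for miR-10b-5p and 19.5 for miR-196a-5p. The part of the offset in these normexp values was not tested. Relative to the median of all tested, the clozapine value of miR-10b-5p was 0.29 under normexp in place of -0.64, and that of miR-10a-5p was -0.65 in place of -0.34. For haloperidol all 5 members stayed below 0 in each of the settings plotted. No setting gave a member an adjusted p under 0.05.

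**Figure D3:**
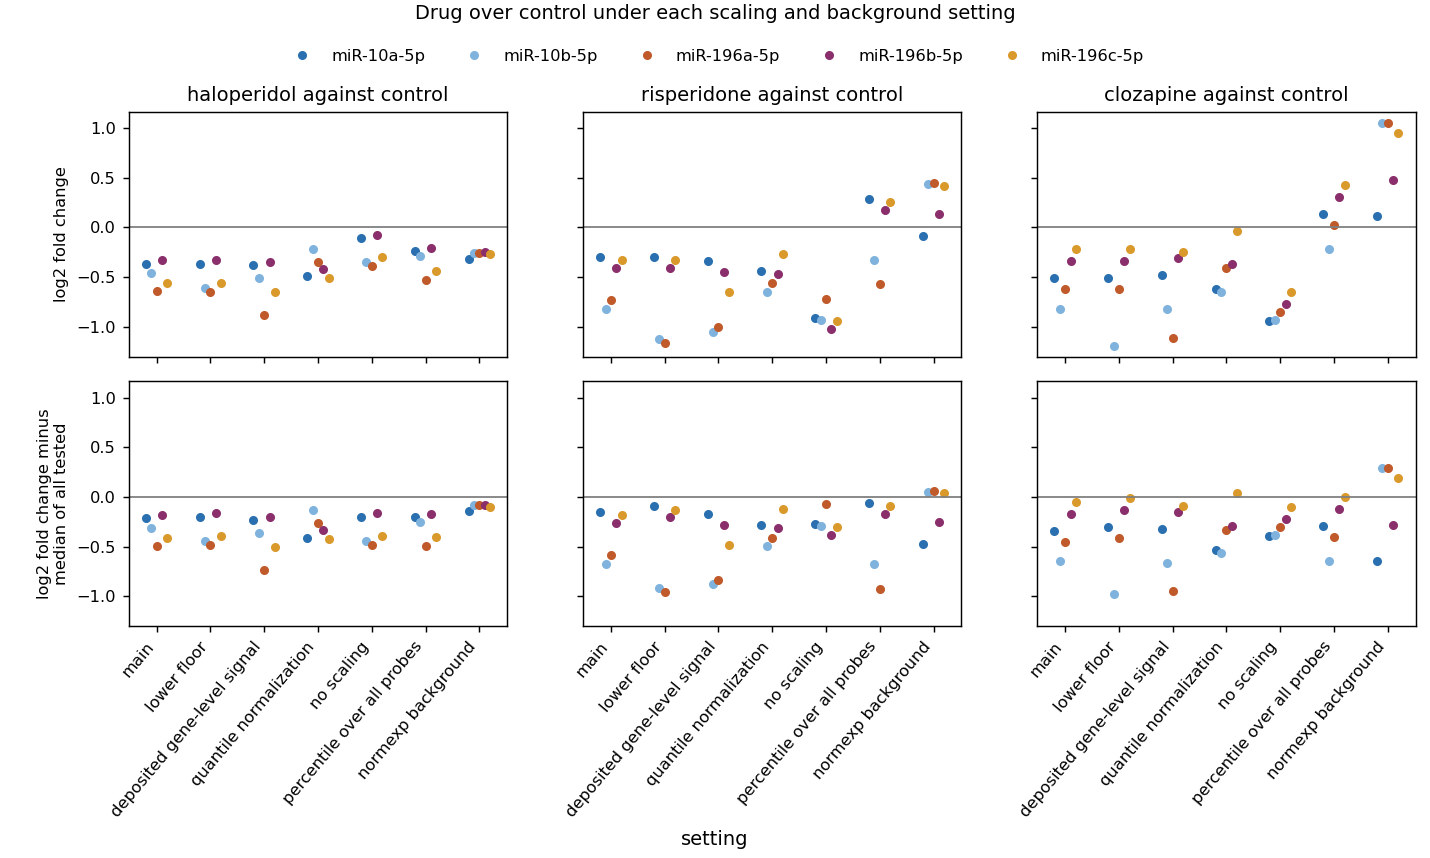
Log2 fold change of the 5 members against control under the scaling and background settings named on the x axis, as given (upper panels) and after subtracting the median of all tested miRNAs (lower panels). Under the percentile over all probes and normexp the risperidone and clozapine points of the upper panels move to or above 0, except miR-10b-5p and risperidone's miR-196a-5p under the first and risperidone's miR-10a-5p under the second.

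The drugs were also set against each other. Risperidone against haloperidol, the members' log2 differences ran from -0.35 (miR-10b-5p) to 0.23 (miR-196c-5p). Clozapine against haloperidol gave -0.35 (miR-10b-5p) to 0.34 (miR-196c-5p), and clozapine against risperidone -0.21 (miR-10a-5p) to 0.11 (miR-196c-5p). limma's adjusted p was 1 for every member in each pair, and 0 of 243 miRNAs were called (0%). At an unadjusted p under 0.05 there were 0, 3 and 4 miRNAs in these pairs (0%, 1.23% and 1.65%). The 95% interval for miR-196b-5p, clozapine minus haloperidol, was -0.56 to 0.55, and for miR-10a-5p it was -1.40 to 1.11, in the fit without the slide row. With the replicate block the intervals were -0.26 to 0.25 for miR-196b-5p and -0.49 to 0.20 for miR-10a-5p. The limma F test over all 4 groups gave the members adjusted p of 0.778 to 0.910.

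Between slide rows, miR-10a-5p had a limma adjusted p under 0.05. This comparison was chosen after the values were seen, so its p values are a description. It sets the 4 arrays of replicate 2 against the 4 of replicate 1 in the limma fit with group and row. miR-10a-5p was higher in replicate 2 by 0.79 (SE 0.09; limma adjusted p 0.0244), ranking 9 of 243 from the top. By group the difference was 0.999 with haloperidol, 0.82 with risperidone, 0.71 with clozapine and 0.63 in control cells. Of all tested miRNAs, 36 passed (14.8%), 8 of them higher (3.29%) and 28 lower (11.5%), and the median difference was -0.10. Higher in all 4 groups were 21 miRNAs (8.64%).

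The miR-196 members went the other way between rows. miR-196a-5p was lower in replicate 2 by a log2 difference of -0.46 (SE 0.07; limma adjusted p 0.0330), with floor values on 2 of the 4 replicate 2 arrays. It did not pass under any of the other scaling, background, summary or floor settings tried, at log2 differences of -0.68 to 0.09. miR-196b-5p was at -0.31 (SE 0.07; limma adjusted p 0.0533) and miR-196c-5p at -0.42 (SE 0.11; limma adjusted p 0.0826), neither past the threshold. All 3 were lower on replicate 2 in each of the 4 groups, as were 30.5% of all tested miRNAs. miR-10b-5p, at 0.34 (limma adjusted p 0.256), was at the floor on both arrays of the risperidone and clozapine groups. Brightness also moved with the row. The 75th percentile used for scaling was 383 to 954 on the replicate 2 arrays and 793 to 1479 on the replicate 1 arrays, and its part in the row differences was not tested. Without scaling, the row difference of miR-10a-5p was 0.17 (limma adjusted p 0.707), and with normexp it was 0.52 (limma adjusted p 0.995).

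A ratio of 2 members on the same array does not use the scaling. The log2 ratio of miR-10a-5p over miR-196b-5p was 1.89, 1.97, 1.55 and 1.74 on the replicate 2 arrays of haloperidol, risperidone, clozapine and control. On the replicate 1 arrays it was 0.58, 0.77, 0.63 and 0.79 in the same groups. The ranges did not overlap, and the means were 1.79 ± 0.18 and 0.69 ± 0.11 (SD, n = 4 each), a difference of 1.10, or 2.14-fold. The two-sided exact permutation p was 0.0286, the smallest that 4 against 4 arrays can give, and 0.0429 adjusted over the 3 ratios computed. That adjustment does not cover the choice of rows and pairs from these same values, and the shuffle ignores the treatment groups. These p values are therefore a description and no test of the row difference. Swapping arrays only within their treatment group, the smallest exact p possible is 0.125, and the ratio was higher on replicate 2 in 4 of 4 groups.

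For the pair in the HoxB cluster, miR-10a-5p over miR-196c-5p, the ratio was 2.85 ± 0.27 on replicate 2 and 1.63 ± 0.22 on replicate 1 (SD, n = 4 each). The difference was 1.21, or 2.32-fold, with an exact permutation p of 0.0286 (0.0429 adjusted). With normexp it was 0.48 (exact permutation p 0.229), and for the ratio over miR-196b-5p the difference was 0.63 in place of 1.10, with no overlap between rows (exact permutation p 0.0286, the smallest possible). All 4 pairings of single probes of miR-10a-5p and miR-196b-5p, each detected on all 8 arrays, separated the rows. Single probes of miR-196c-5p were too faint for this, since none of the 4 had most of its spots well above background on all 8 arrays. miR-196b-5p over miR-196c-5p, from separate clusters but with 1 seed, was 1.06 ± 0.23 on replicate 2 and 0.94 ± 0.19 on replicate 1, a difference of 0.12 (exact permutation p 0.457). The rows and the pairs were taken up after the row differences of the single members had been seen, so the ratios restate those differences without the scaling and are no separate evidence for them. The exact permutation p values of the ratios are descriptive for the same reason. A ratio also does not show which of the 2 members changed.

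Between drugs and control cells the ratios with miR-10a-5p differed less than between rows. Within rows, drug minus control for miR-10a-5p over miR-196b-5p lay between -0.21 and 0.24 over the 3 drugs. The sign differed between rows for haloperidol (0.15 in row 2, -0.21 in row 1) and risperidone (0.24 and -0.02), and was the same for clozapine (-0.18 and -0.16). For miR-10a-5p over miR-196c-5p, drug minus control lay between -0.38 and 0.41, beside a row difference of 1.21. For miR-196b-5p over miR-196c-5p it lay between -0.31 and 0.26, which reached further than the row difference of 0.12.

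**Figure D4:**
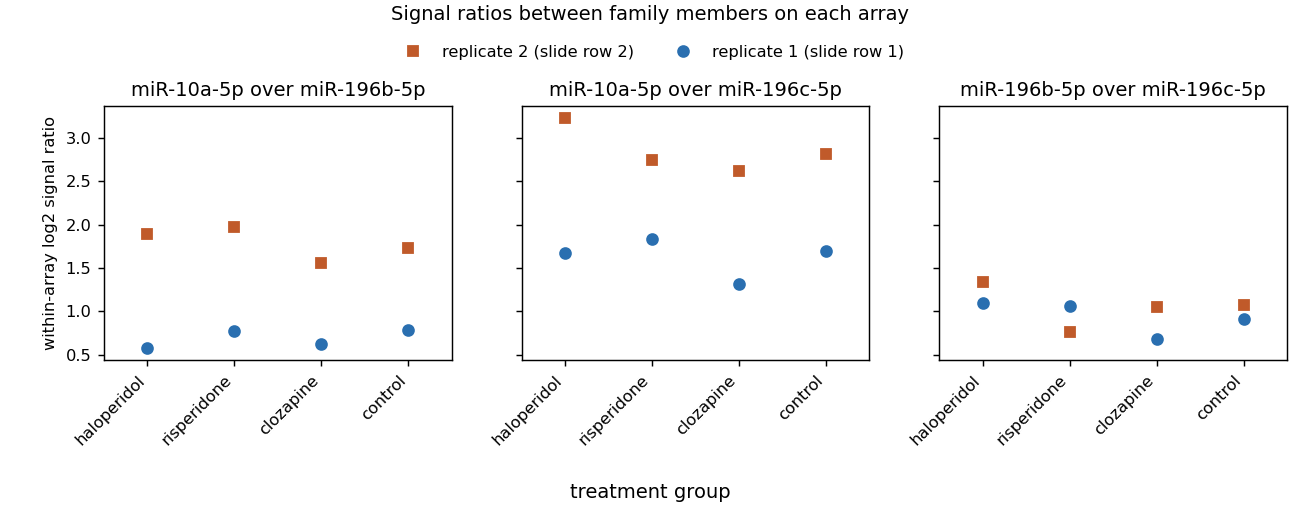
Within-array log2 signal ratios of member pairs on each of the 8 arrays by treatment group; squares are replicate 2 and circles replicate 1. In the left and middle panels all squares lie above all circles, and in the right panel they intermix.

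Sequence relatives outside the Hox clusters were described beside the members. The miR-99 and miR-100 5p arms resemble miR-10, and miR-100-5p shares a run of 11 bases with miR-10a-5p. Of the let-7 family, let-7a-5p holds the miR-196 seed letters one position further along, a run of 7 bases; the other let-7 arms were not compared by sequence. The runs are printed in capitals here.
rno-miR-100-5p: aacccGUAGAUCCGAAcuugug
rno-let-7a-5p: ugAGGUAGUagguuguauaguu

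All 3 miR-99/100 arms were below 0 with each drug, with medians of -0.36 for haloperidol, -0.33 for risperidone and -0.36 for clozapine. The 8 let-7 and miR-98 5p arms were below 0 as well, with medians of -0.36, -0.41 and -0.41. The smallest limma adjusted p among these relatives was 0.326, so none passed. Their medians were close to those of the Hox-cluster members, and cross-binding between relatives was not tested.

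Over the 8 arrays, the 182 miRNAs detected on all of them (members left out) were ranked by Pearson's r of their log2 level with each member, as a description that shares slide row and array brightness. Nearest to miR-10a-5p were miR-129-2-3p (r = 0.975), miR-129-1-3p (0.954) and miR-129-5p (0.948). miR-196b-5p was nearest to miR-100-5p (0.989), miR-450a-5p (0.981) and miR-338-5p (0.978), and miR-196a-5p to miR-338-5p (0.962), miR-100-5p (0.951) and miR-352 (0.948). For miR-196c-5p they were miR-181a-5p (0.963), miR-378b (0.933) and let-7a-1-3p (0.871). miR-10b-5p, with 5 arrays at the floor, had miR-34c-3p (0.893), miR-598-3p (0.877) and miR-484 (0.845). The miR-196 seed mates thus did not have the same nearest neighbours: miR-100-5p and miR-338-5p were near miR-196a-5p and miR-196b-5p but not among the 3 nearest to miR-196c-5p.

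The arrays were checked as a whole. Between 193 and 254 miRNAs were detected per array, fewest on risperidone replicate 2 (193) and clozapine replicate 2 (203), and no spot was saturated. The glial and glioma markers miR-21-5p, miR-125b-5p and miR-9a-5p were detected on all 8 arrays, as was miR-338-3p, an oligodendrocyte marker. The neuronal marker miR-124-3p, miR-133a-3p and miR-1-3p of muscle, and 3 epithelial miR-200 arms were detected on 0 arrays. Among leukocyte markers miR-223-3p was detected on 4 arrays, miR-142-3p on 3 (at the floor on all 8) and miR-142-5p on 0. Of the erythrocyte markers miR-451-5p was detected on 2 arrays and miR-144-3p on 0, and muscle miR-206-3p was detected on 5. The number of arrays limits the precision of every value above.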

How the data were processed

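Single-colour miRNA arrays of C6 cells were analysed, 2 per group. The deposited values are intensity signals on a linear scale, made with Agilent Feature Extraction 10.7.3.1 per the file headers and not scaled between arrays. Flags are 0 or 1 (unit other) in the deposited files. Members, relatives and marker lists were chosen with earlier results of these data known. The named miRNAs are all members, the relatives listed, and the 3 miRNAs with the highest r per member.

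Outlier spots were dropped, each probe's background-subtracted spots were averaged, and a miRNA's probes were summed. Each array was scaled to its own 75th percentile, taken over the 292 probes that every array detected, and values under the 5th percentile of detected ones were raised to it (log2 -6.21). limma 3.58.1 in R 4.3.3 was fitted to 243 miRNAs on all 8 arrays (4 residual degrees of freedom), two-sided, with Benjamini-Hochberg adjustment over all 243 and a threshold of 0.05. The procedure was tested on simulated data. Normexp (offset 50) used spot and background medians, since the files hold no mean signal column. The setting with no detection filter left out miRNAs with 1 value on all arrays, keeping 254. Leaving out each array, other scalings, floors, filters and the replicate block were tried.

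Deviations of same-numbered arrays from their group means correlated between groups (r 0.163 to 0.714 over 243 miRNAs, 6 group pairs). The labels do not say that a number marks a shared culture or day, but it is the slide row, so blocked and within-row values are given.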

Additional observations from a re-analysis of the deposited data

How the results depend on the processing

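With 2 arrays a group, limma called no member against control or between drugs under any setting (smallest adjusted p 0.0679, with the replicate block). The faint members miR-10b-5p and miR-196a-5p sat near the floor, while miR-10a-5p, miR-196b-5p and miR-196c-5p were at the floor on 0 arrays. Direction was less stable. Of the members' log2 fold changes against control, 16 changed sign (113 kept it) under scaling, background, summary, floor, filter or block settings. When 1 array was left out, 5 changed sign (115 kept it), and the cause was not tested. Part of the kept counts was fixed in advance. The filter and block settings do not alter these fold changes, nor does leaving out an array of a group outside the comparison. Called miRNAs numbered 1 for risperidone and 2 for clozapine with the replicate block, in place of 0. Leaving out 1 array gave 0 to 5 calls with haloperidol, 0 to 6 calls with risperidone and 0 to 7 calls with clozapine, highest without control replicate 2, and 0 to 0 between drugs and for the F test.

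With the percentile over all probes, sign changes against control were 0.29 (risperidone) and 0.14 (clozapine) for miR-10a-5p, 0.024 (clozapine) for miR-196a-5p, 0.18 and 0.31 for miR-196b-5p, and 0.26 and 0.43 for miR-196c-5p. With normexp they were 0.11 (clozapine) for miR-10a-5p, 0.43 and 1.05 for miR-10b-5p, 0.44 and 1.05 for miR-196a-5p, 0.13 and 0.47 for miR-196b-5p, and 0.42 and 0.95 for miR-196c-5p. These normexp values include the offset of 50 added to each spot, whose part in them was not tested.

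Between drugs, the percentile over all probes gave clozapine minus haloperidol 0.38 (miR-10a-5p), 0.072 (miR-10b-5p) and 0.52 (miR-196b-5p), and risperidone minus haloperidol 0.39 (miR-196b-5p). Normexp gave clozapine minus haloperidol 0.43 (miR-10a-5p), 1.31 (miR-10b-5p) and 0.73 (miR-196b-5p), risperidone minus haloperidol 0.69 (miR-10b-5p), 0.70 (miR-196a-5p) and 0.38 (miR-196b-5p), and clozapine minus risperidone 0.20 (miR-10a-5p). No scaling gave risperidone minus haloperidol -0.81 (miR-10a-5p) and -0.65 (miR-196c-5p), clozapine minus haloperidol -0.46 (miR-196a-5p) and -0.35 (miR-196c-5p), and clozapine minus risperidone -0.13 (miR-196a-5p). Quantile normalization gave clozapine minus haloperidol -0.060 (miR-196a-5p) and 0.048 (miR-196b-5p). The deposited gene-level signal gave -0.23 (miR-196a-5p) and 0.037 (miR-196b-5p) there, clozapine minus risperidone -0.11 (miR-196a-5p) and risperidone minus haloperidol -0.00093 (miR-196c-5p).

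Leaving out 1 array, miR-10a-5p ranged from -0.86 to 0.13 with haloperidol (above 0 without haloperidol replicate 1) and -0.71 to 0.11 with risperidone (above 0 without risperidone replicate 1 or control replicate 2), and miR-196c-5p from -0.51 to 0.068 with clozapine (above 0 without clozapine replicate 2 or control replicate 1). With haloperidol miR-10b-5p ranged from -0.82 to -0.11, miR-196a-5p from -0.91 to -0.38, miR-196b-5p from -0.49 to -0.17 and miR-196c-5p from -0.83 to -0.28. The remaining ranges against control lay between -1.15 and -0.09, all below 0. Between drugs, in the order risperidone minus haloperidol, clozapine minus haloperidol, clozapine minus risperidone, the ranges were -0.43 to 0.57, -0.65 to 0.35 and -0.63 to 0.20 (miR-10a-5p). They were -0.35 to 0.18, -0.25 to 0.30 and -0.17 to 0.38 (miR-196a-5p), and -0.26 to 0.11, -0.17 to 0.15 and -0.12 to 0.25 (miR-196b-5p). For miR-196c-5p, risperidone minus haloperidol ranged from -0.045 to 0.51 and clozapine minus risperidone from -0.18 to 0.40.

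The difference of replicate 2 minus replicate 1 turned for miR-196a-5p with normexp (0.094), for miR-196b-5p (0.28) and miR-196c-5p with the all-probe percentile (0.16) and normexp (0.037). It no longer passed for miR-10a-5p without scaling (0.17) or with normexp (0.52), nor for miR-196a-5p under any other setting tried for it. With the all-probe percentile it passed for miR-10b-5p (0.83), and it did so for miR-196c-5p with the gene-level signal (-0.60). The ratio difference of miR-196b-5p over miR-196c-5p turned to -0.15 with normexp. miR-196a-5p was detected on 3 arrays, in place of 6, when most of the spots of a probe had to be well above background.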
